A study of Homo sapiens with 16 samples.

Results

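The core repressors and output genes of the circadian clock were followed across 8 groups of LN229 cells, a line established from a human glioblastoma (GBM). The 10 genes were chosen by name, with earlier results of these data known. They are *BHLHE40*, *BHLHE41*, *PER1*, *PER2*, *PER3*, *CRY1*, *CRY2*, *NR1D1*, *NR1D2* and *DBP*, and all 10 were listed in both expression tables, with no further filter, among 13559 genes in the untreated experiment and 14024 genes in the inhibitor experiment. The untreated experiment compared regular culture (complete medium with serum) with an ischemic culture, in which glucose, glutamine, serum and oxygen were low and no agent was given. The inhibitor experiment gave cells in each of these cultures DMSO (the vehicle), VX745 (an inhibitor of the stress kinase p38α) or MK25 (an inhibitor of MK2, a kinase that p38 activates). Each of the 8 groups holds 2 libraries, 16 in all. Every group is the same unmodified line, and the sources used here tie no dose or exposure time to these libraries. The methods speak of independent experiments for work in culture in general, but do not state whether the 2 libraries of a group came from separate cultures, so p-values measure only the spread between these libraries, which may be technical. Fewer cells of a kind and less RNA per cell cannot be told apart in such samples. The parts of the ischemic condition cannot be told apart either. Each group stands for 1 unstated hour of collection, and for a cycling gene a change in mean level and a change in phase cannot be told apart.

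The clock is a feedback loop of transcription. The activators CLOCK (or NPAS2) and BMAL1 (or BMAL2) bind E-boxes and raise the transcription of their own repressors. The PER and CRY proteins form a complex that blocks the activators, and BHLHE40 and BHLHE41 (DEC1 and DEC2) are repressors that occupy the same E-boxes. NR1D1 and NR1D2 (REV-ERBα and REV-ERBβ) are nuclear receptors that repress *BMAL1*, against the ROR receptors, which activate it. DBP is an output activator that binds D-boxes, which NFIL3 represses. *BHLHE40* and *BHLHE41* are also known as genes that respond to hypoxia.

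Levels are given as log2 normalized CPM, which are log2 counts scaled to a common library size with a small offset, and a difference of 1 is a 2-fold change. The libraries held between 20122017 and 37562668 reads on listed genes. The ischemic libraries of the inhibitor experiment were deeper (27239609 to 37562668) than the regular ones (20122017 to 30228774), and the 2 regular MK25 libraries held 20122017 and 21807502. No library held fewer than 119 reads of any of the 10 genes, which speaks to counting error only and not to other differences between libraries. A test of counts found more difference between the 2 libraries of every group than sampling noise gives. The 2 ischemic untreated libraries stood furthest apart for the clock genes. Library 2 exceeded library 1 for 9 of 10 genes, by up to 0.745 (*NR1D1*), whereas the largest gap within any other group was between 0.148 and 0.314. As a check of the condition, 6 of 6 hypoxia genes rose in ischemic culture in the untreated experiment and 6 of 6 in the DMSO groups. Of all genes 35.2% and 34.4% rose there. The median log2 fold changes of the 6 were 4.76 and 4.54, but *EGLN3* rose by only 0.62 in DMSO. Of 8 glioma markers, all listed, *VIM* (11.08 to 12.77 in every library), *CD44* and *NES* were abundant, *EGFR*, *S100B* and *SOX2* lay between 3.13 and 7.11, *OLIG2* between 0.94 and 3.09, and the astrocyte marker *GFAP* between -0.36 and 1.06. They moved with the culture. In untreated cells 2 of 8 rose (*VIM* by 1.38 and *EGFR* by 1.17) and 5 fell, where 35.2% of all genes rose and 35.2% fell. Among those that fell were *SOX2* by 3.11, *OLIG2* by 1.68 and *NES* by 1.36 on the log2 scale. In DMSO 3 rose and 4 fell, where 34.4% of all genes rose and 35.2% fell. The part of these markers in the changes of the clock genes was not tested.

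The promoters of the 10 genes were read from RefSeq (GRCh38.p14), as windows from 250 bases before to 50 bases after each start, of which the 10 genes had 13. The E-box CACGTG is the letters that the clock activators and the BHLHE40 and BHLHE41 repressors bind. It was found in 4 of the 13 windows, those of *BHLHE40*, *BHLHE41*, *PER1* and *NR1D2*, and in 7.26% of 35116 windows of all genes. The following stretches, all upstream of the start and written 5′ to 3′ on the strand of the gene, show these matches in capitals.
BHLHE40 (chr3:4979187-4979212, plus strand): tccaaCACGTGagactcatgtgatga
BHLHE41 (chr12:26125065-26125100, minus strand): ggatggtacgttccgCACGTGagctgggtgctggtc
PER1 (chr17:8152557-8152592, minus strand): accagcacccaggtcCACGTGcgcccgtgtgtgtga
NR1D2 (chr3:23945951-23946036, plus strand): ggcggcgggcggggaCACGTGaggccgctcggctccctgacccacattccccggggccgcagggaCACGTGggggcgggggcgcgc
The first base of the E-box lay 245 bases before the start in *BHLHE40*, 48 in *BHLHE41* and 173 in *PER1*, and *NR1D2* had a pair, at 155 and 105 bases before the inner of its 2 starts. By the GENCODE annotation the stretch of *NR1D2* lies in the first intron of 2 of the 5 transcripts of the gene and upstream of the other 3. That of *PER1* lies upstream of 15 of 19 transcripts and in an intron of 4, and those of *BHLHE40* and *BHLHE41* lie upstream of all 3 transcripts of each gene.

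The short core that hypoxia-inducible factors bind, ACGTG or GCGTG on either strand, was found in 12 of the 13 windows and in 48.4% of all windows. The E-box holds this core on both strands, so the 2 searches overlap. The D-box, TTATGTAA or TTACGTAA, was found in 3 of 13 windows (*PER2*, *PER3* and *NR1D2*) and in 1.01% of all windows. The core of ROR and REV-ERB sites, AGGTCA, was found in 3 of 13 windows (of *PER1* and *CRY2*) and in 13.8% of all. The short form of the cyclic AMP element, TGACG, was found in 6 of 13 windows (of *PER2*, *CRY1*, *CRY2* and *NR1D2*) and in 24.6% of all, and the full element, TGACGTCA, in 0 of 13 and in 1.85% of all. The 250 bases before the *BHLHE40* start, the gene with the largest change below, are shown with the E-box and every hypoxia core in capitals.
BHLHE40 upstream (chr3:4979187-4979436, plus strand): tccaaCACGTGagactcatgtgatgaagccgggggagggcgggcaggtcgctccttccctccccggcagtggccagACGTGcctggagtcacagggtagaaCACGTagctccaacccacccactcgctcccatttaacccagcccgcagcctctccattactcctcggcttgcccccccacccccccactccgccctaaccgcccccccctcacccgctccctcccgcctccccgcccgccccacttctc
A match is a description of the letters and not of binding, which was not measured.

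Ischemic culture raised most of the clock repressors, and *BHLHE40* by far the most. In untreated cells 7 of the 10 genes rose and 0 fell at an adjusted p under 0.05, where 35.2% of all genes tested rose and 35.2% fell, so a call alone was common. Past a 2-fold rise there were 5 of 10 (*BHLHE40*, *BHLHE41*, *NR1D1*, *PER1* and *PER2*), against 11.3% of all genes. In the DMSO groups 9 of 10 rose and 0 fell, where 34.4% of all genes rose and 35.2% fell, and the same 5 genes passed a 2-fold rise, against 9.03% of all genes. The median log2 fold change over the 10 genes was 1.06 in untreated and 0.95 in DMSO cells, and over all genes it was -0.01 in each.

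**Figure D1:**
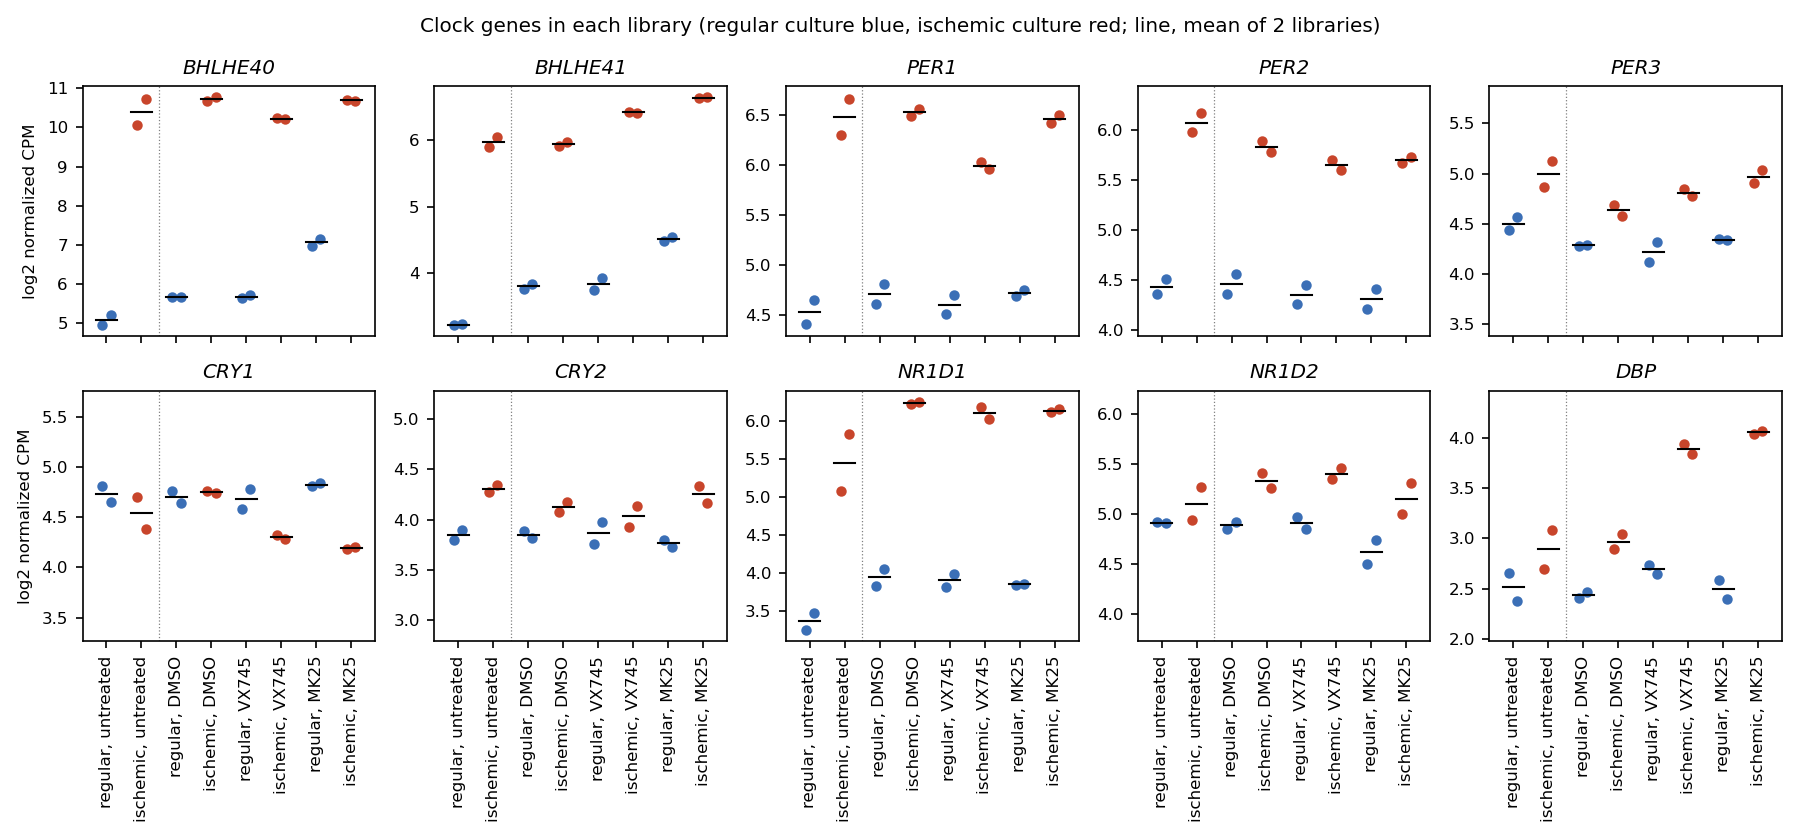
Each point is 1 library and each line the mean of the 2 libraries of a group, as log2 normalized CPM, with a panel and a vertical scale for each gene. Regular culture is blue and ischemic culture red, and the dotted line parts the untreated experiment from the inhibitor experiment, which were normalized separately. *BHLHE40* lies between 4.94 and 7.14 in regular culture and between 10.07 and 10.77 in ischemic culture.

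*BHLHE40* (chromosome 3, 4979437 to 4985323, GRCh38), the repressor DEC1, read 4.94 and 5.21 in the regular untreated libraries and 10.07 and 10.72 in the ischemic ones. In DMSO it read 5.66 and 5.66 in regular culture and 10.67 and 10.77 in ischemic culture. The groups lay far apart in each experiment. The rise was 39.9-fold in untreated cells (log2 fold change 5.32, SE 0.16, limma adjusted p = 3.85e-11) and 33.4-fold in DMSO (5.06, SE 0.06, adjusted p = 3.5e-20). Only 24 of 13559 genes in the untreated experiment and 14 of 14024 in the inhibitor experiment had a larger log2 rise. The antisense gene *BHLHE40-AS1* shares 451 bases with the exons of *BHLHE40* (12.8% of them) and also rose, by 3.90 and 4.65 on the log2 scale. It held only between 4 and 8 reads in the regular untreated and regular DMSO libraries. Its most in any library was 202 reads, where *BHLHE40* held up to 61929. The library kit that the labels name (SMART-Seq with Nextera XT) is one that does not mark strand, and how strand was treated in counting is not given in the sources used here. Reads from the shared bases are therefore taken as not told apart.

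*BHLHE41* (chromosome 12, 26120030 to 26125037), the related repressor DEC2, read 3.23 and 3.24 in regular untreated cells and 5.89 and 6.05 in ischemic ones. In DMSO it read 3.77 and 3.84, then 5.91 and 5.97. It rose 6.67-fold (log2 fold change 2.74, SE 0.09, limma adjusted p = 1.7e-10) and 4.39-fold (2.13, SE 0.07, adjusted p = 3.5e-14). The rise of *BHLHE40* was thus larger than that of its paralog in both experiments, with no overlap of their 95% intervals (4.98 to 5.66 against 2.53 to 2.94 in untreated cells). *SSPN*, on the opposite strand, shares 162 bases with the exons of *BHLHE41* (4.20%) and read between 0.48 and 1.44 in every library.

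The period genes rose unequally. *PER1* (chromosome 17, 8140472 to 8152404) read 4.41 and 4.65 in regular untreated cells and 6.30 and 6.66 in ischemic ones, a rise of 3.86-fold (log2 fold change 1.95, SE 0.12, limma adjusted p = 2.1e-08). In DMSO it rose 3.51-fold, from 4.61 and 4.82 to 6.49 and 6.56. *PER2* (chromosome 2, 238244044 to 238300065) went from 4.36 and 4.51 to 5.98 and 6.17 in untreated cells, 3.10-fold, and from 4.37 and 4.56 to 5.89 and 5.78 in DMSO, 2.58-fold. *PER3* (chromosome 1, 7784291 to 7845177) rose less, from 4.44 and 4.57 to 4.86 and 5.13 (1.41-fold, adjusted p = 0.0011) and from 4.28 and 4.28 to 4.69 and 4.57 (1.28-fold, adjusted p = 0.0012). The groups did not overlap for any period gene. The same held for 14 of 16 listed clock kinases, ligases and cofactors in untreated cells and 16 of 16 in DMSO. With 2 libraries a group a gap alone therefore says little, and its share over all genes was not counted. The 95% interval of the *PER3* log2 fold change in DMSO, 0.17 to 0.53, ended below those of *PER1* (1.65 to 1.98) and *PER2* (1.18 to 1.56).

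Of the cryptochromes, the partners of the period proteins, *CRY2* rose and *CRY1* was not called. *CRY1* (chromosome 12, 106991364 to 107093549) read 4.81 and 4.65 in regular untreated cells and 4.70 and 4.39 in ischemic ones. In DMSO it read 4.77 and 4.64, then 4.77 and 4.75. These groups overlapped, and the log2 fold changes were -0.19 (SE 0.11, limma adjusted p = 0.16) and 0.05 (SE 0.08, adjusted p = 0.57). *CRY2* (chromosome 11, 45847118 to 45883244) rose 1.38-fold in untreated cells, from 3.79 and 3.90 to 4.27 and 4.34, and 1.22-fold in DMSO, from 3.88 and 3.82 to 4.08 and 4.18 (adjusted p = 0.022). That last call was lost without ischemic DMSO library 2 (log2 fold change 0.23) or without regular DMSO library 2 (0.25).

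Of the REV-ERB genes *NR1D1* rose the more. In DMSO the 95% interval of its log2 fold change was 2.11 to 2.46, and that of *NR1D2* was 0.24 to 0.66. *NR1D1* (chromosome 17, 40092793 to 40100589) read 3.26 and 3.48 in regular untreated cells and 5.08 and 5.82 in ischemic ones, a rise of 4.23-fold (log2 fold change 2.08, SE 0.18, limma adjusted p = 6.6e-07). In DMSO it rose 4.87-fold, from 3.83 and 4.06 to 6.21 and 6.24 (2.28, SE 0.08, adjusted p = 1.5e-13). *THRA*, a thyroid hormone receptor gene on the opposite strand, shares 473 bases with the exons of *NR1D1* (18.0% of them), and it fell by 1.16 in untreated cells and by 0.97 in DMSO on the log2 scale. *NR1D2* (chromosome 3, 23945286 to 23980617) rose 1.36-fold in DMSO, from 4.85 and 4.92 to 5.41 and 5.26 (adjusted p = 0.00070). In untreated cells it read 4.92 and 4.92, then 4.94 and 5.27 (log2 fold change 0.19, SE 0.11, adjusted p = 0.13).

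*DBP* (chromosome 19, 48630030 to 48637379), the output activator, had the lowest level per kilobase of exon of the 10 genes in every group. That place rests on all its annotated exons joined, 6485 bases, and a shorter transcript in use would give a higher level. It read 2.66 and 2.37 in regular untreated cells and 2.70 and 3.09 in ischemic ones (log2 fold change 0.38, SE 0.17, limma adjusted p = 0.065). In DMSO it rose 1.45-fold, from 2.40 and 2.47 to 2.89 and 3.04 (adjusted p = 0.00044). *SPHK2* shares 661 bases with the exons of *DBP* on the opposite strand (10.2% of them), and it fell by 0.62 and by 0.47. Without ischemic untreated library 1, the log2 fold changes of *DBP*, *NR1D2* and *CRY1* in untreated cells were 0.57, 0.35 and -0.34. Without library 2 of that group they were 0.18, 0.026 and -0.026, so their size depended on the library kept.

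**Figure D2:**
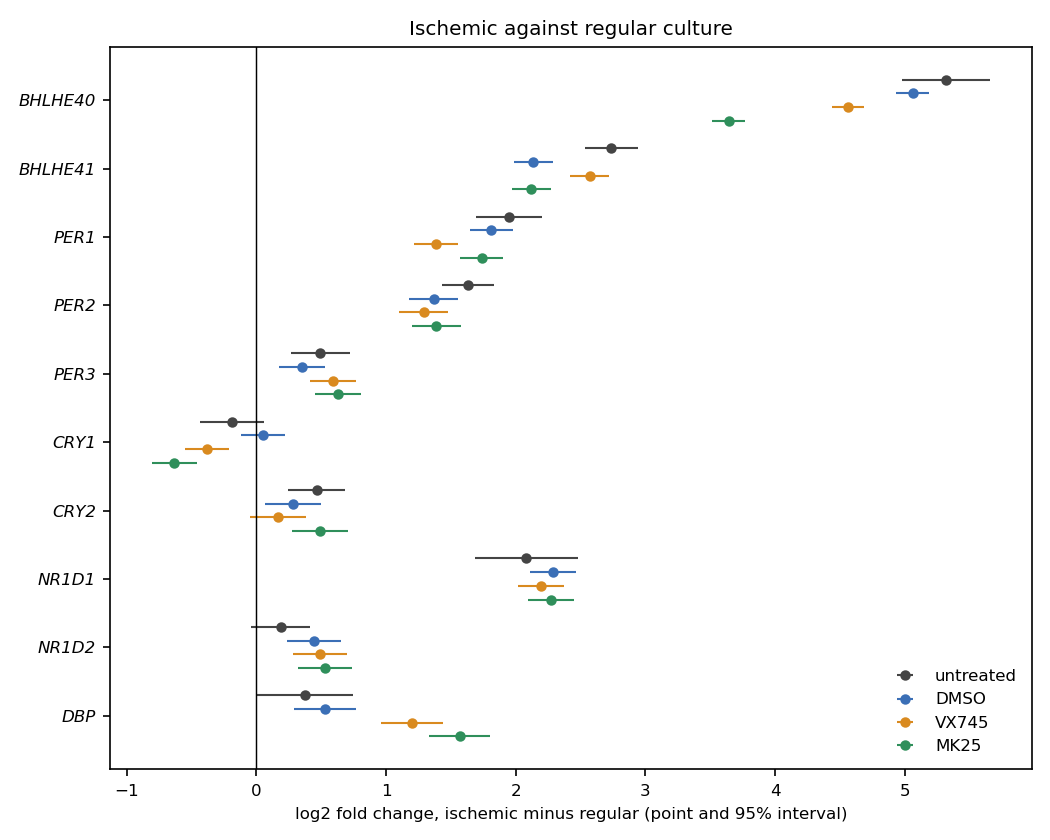
Points are log2 fold changes of ischemic against regular culture and bars their 95% intervals, for untreated cells and for cells given DMSO, VX745 or MK25. *BHLHE40* stands at 5.32, 5.06, 4.56 and 3.64 in that order, and *CRY1* at -0.19, 0.05, -0.38 and -0.63.

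With the inhibitors present the same culture comparison gave 8 of 10 genes higher and 1 lower under VX745, where 34% of all genes were higher and 32.6% lower. Under MK25 it gave 9 higher and 1 lower, where 33.5% of all genes were higher and 33.7% lower. The gene that fell was *CRY1* in each case, by 0.38 under VX745 (limma adjusted p = 0.00049) and by 0.63 under MK25 (adjusted p = 2.4e-06) on the log2 scale. *NR1D1* (2.19 and 2.27) and *PER2* (1.29 and 1.39) stood beside log2 rises of 2.28 and 1.37 in DMSO.

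Of the 4 genes of the clock activators, 1 rose and 1 fell in untreated cells, where 35.2% of all genes rose and 35.2% fell. In DMSO 1 rose and 2 fell, where 34.4% of all genes rose and 35.2% fell. Counts out of 4 genes are too small to be set against these shares. *NPAS2* rose by 0.92 in untreated and 0.88 in DMSO cells (log2 fold changes, SE 0.07 and 0.06), and *BMAL2* fell by 0.67 and 0.39. *BMAL1* read 3.99 and 4.15 in regular and 4.18 and 3.98 in ischemic untreated cells (log2 fold change 0.01, limma adjusted p = 0.94), and its log2 fold change in DMSO was -0.05 (adjusted p = 0.66). *CLOCK* had log2 fold changes of 0.08 (adjusted p = 0.44) and -0.28 (adjusted p = 0.0074). The median of the 4 was 0.05 and -0.17, beside -0.01 over all genes.

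Among the factors that act opposite to REV-ERB and DBP, *RORA* and *NFIL3* rose. *RORA*, an activator of *BMAL1*, rose by 3.47 and 2.24, from -1.16 and -1.08 to 2.46 and 2.24 in untreated cells. It held only 9 and 11 reads in the regular untreated libraries and 28 and 23 in the regular DMSO libraries. *RORB* read 1.13 and 0.95, then 1.49 and 1.54 (log2 fold change 0.47, adjusted p = 0.059), and rose by 0.86 in DMSO. *NFIL3*, the repressor at D-boxes, rose by 3.26 and 2.90, from 3.04 and 3.06 to 6.02 and 6.59 in untreated cells. *TEF*, an activator of the same family as DBP, rose by 0.53 and 0.62, and *HLF* had log2 fold changes of 0.11 (adjusted p = 0.54) and 0.22 (adjusted p = 0.20).

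Of 16 clock kinases, ligases and cofactors that were listed (of 18), 6 rose and 3 fell in untreated cells and 6 rose and 7 fell in DMSO, with medians of 0.12 and -0.14. The shares that rose were close to those of all genes (35.2% and 34.4%). Of all genes 35.2% fell in each comparison, so the share that fell was smaller in untreated cells and larger in DMSO. Those past a 2-fold change in both experiments were *CIART*, a repressor of CLOCK and BMAL1, *PRKAA2*, a catalytic subunit of AMPK, *TIPIN*, the partner of TIMELESS in the replication fork, and *USP2*, a ubiquitin protease. *CIART* rose by 3.40 and 3.15 on the log2 scale, from 2.53 and 2.67 to 5.85 and 6.15 in untreated cells. *PRKAA2* rose by 2.58 and 2.09, and *TIPIN* fell by 1.67 and 1.48. *USP2* fell by 1.76 and 1.96, but on between 4 and 9 reads a library in ischemic untreated and ischemic DMSO cells. Of 8 output genes listed in the untreated experiment 6 rose and 2 fell, where 35.2% of all genes rose and 35.2% fell. Of 9 in the inhibitor experiment 5 rose and 3 fell in DMSO, where 34.4% of all genes rose and 35.2% fell. The medians of the output genes were 1.04 and 1.21. *NAMPT*, the rate-limiting enzyme of NAD salvage, rose by 2.59 and 1.97, *KLF10* by 2.11 and 1.21, *WEE1*, the kinase that restrains entry into mitosis, by 1.40 and 1.42, and *KLF11* by 1.17 and 1.44.

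**Figure D3:**
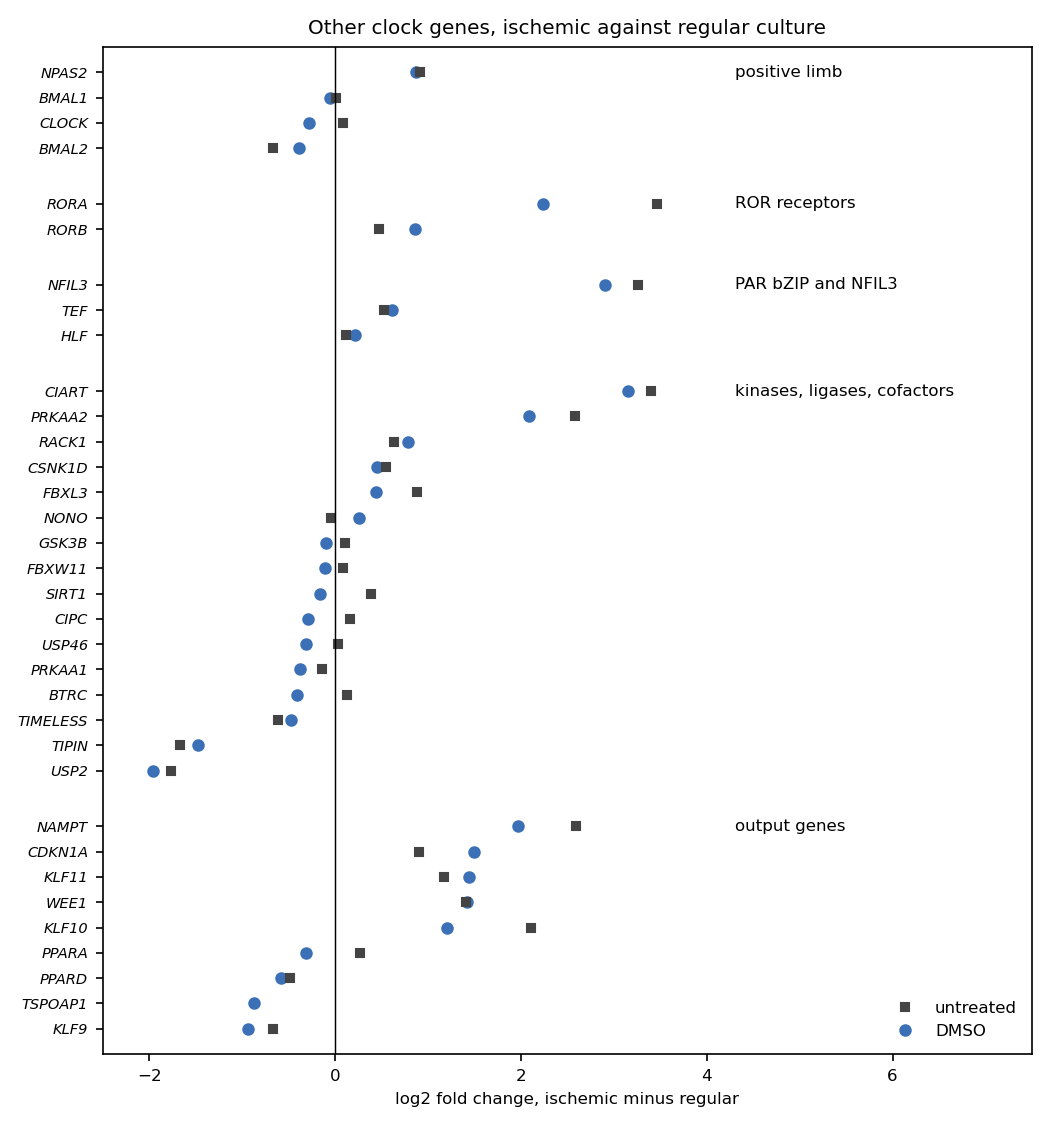
Log2 fold changes of ischemic against regular culture for the other clock genes, with squares for untreated cells and circles for DMSO, grouped by list and ordered by the DMSO value. *RORA*, *NFIL3*, *CIART* and *PRKAA2* lie past 2 in both experiments, and *BMAL1* lies at 0.01 and -0.05.

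In regular culture MK25 raised the BHLHE pair and VX745 did not. With MK25 *BHLHE40* read 6.98 and 7.14 against 5.66 and 5.66 in DMSO, a rise of 2.63-fold (log2 fold change 1.40, SE 0.06, limma adjusted p = 2.3e-11), and the groups did not overlap. *BHLHE41* read 4.48 and 4.54 against 3.77 and 3.84, a rise of 1.63-fold (0.71, SE 0.07, adjusted p = 2.7e-06). These 2 were the only members called, 2 of 10 higher and 0 lower, where 7% of all genes were higher and 5.21% lower. Only 59 of 14024 genes had a larger log2 rise than *BHLHE40* in this comparison. The other 8 genes had log2 fold changes between -0.26 and 0.12, the lowest that of *NR1D2* (adjusted p = 0.094), which passed without regular MK25 library 2 (-0.38).

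With VX745 in regular culture *BHLHE40* read 5.62 and 5.71 and *BHLHE41* read 3.76 and 3.93. By limma 0 of 10 genes passed, where 0.178% of all genes were higher and 0.157% lower. At an unadjusted p under 0.05 there was 1, *DBP* (2.74 and 2.65 against 2.40 and 2.47, log2 fold change 0.26, adjusted p = 0.29), and voom on recovered reads also called 0. The range over the 10 genes was -0.11 to 0.26.

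The hypoxia genes moved with the BHLHE pair under MK25 in regular culture. Of 6, 5 rose, where 7% of all genes were higher, and the sixth, *EGLN3*, did not pass (0.33, adjusted p = 0.42). The median of the 6 was 1.39. *CA9* read 2.14 and 2.30 against -1.77 and 0.27 in DMSO, *ANKRD37* rose by 2.02, *PDK1* by 1.86, *VEGFA* by 0.92 and *ADM* by 0.54. *CIART* (1.09) and *NFIL3* (0.54) rose too. With VX745 in regular culture the 6 hypoxia genes had log2 fold changes between -0.94 and 0.54, and none passed the test (smallest adjusted p = 0.13). The part that this has in the levels of *BHLHE40* and *BHLHE41* was not tested.

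**Figure D4:**
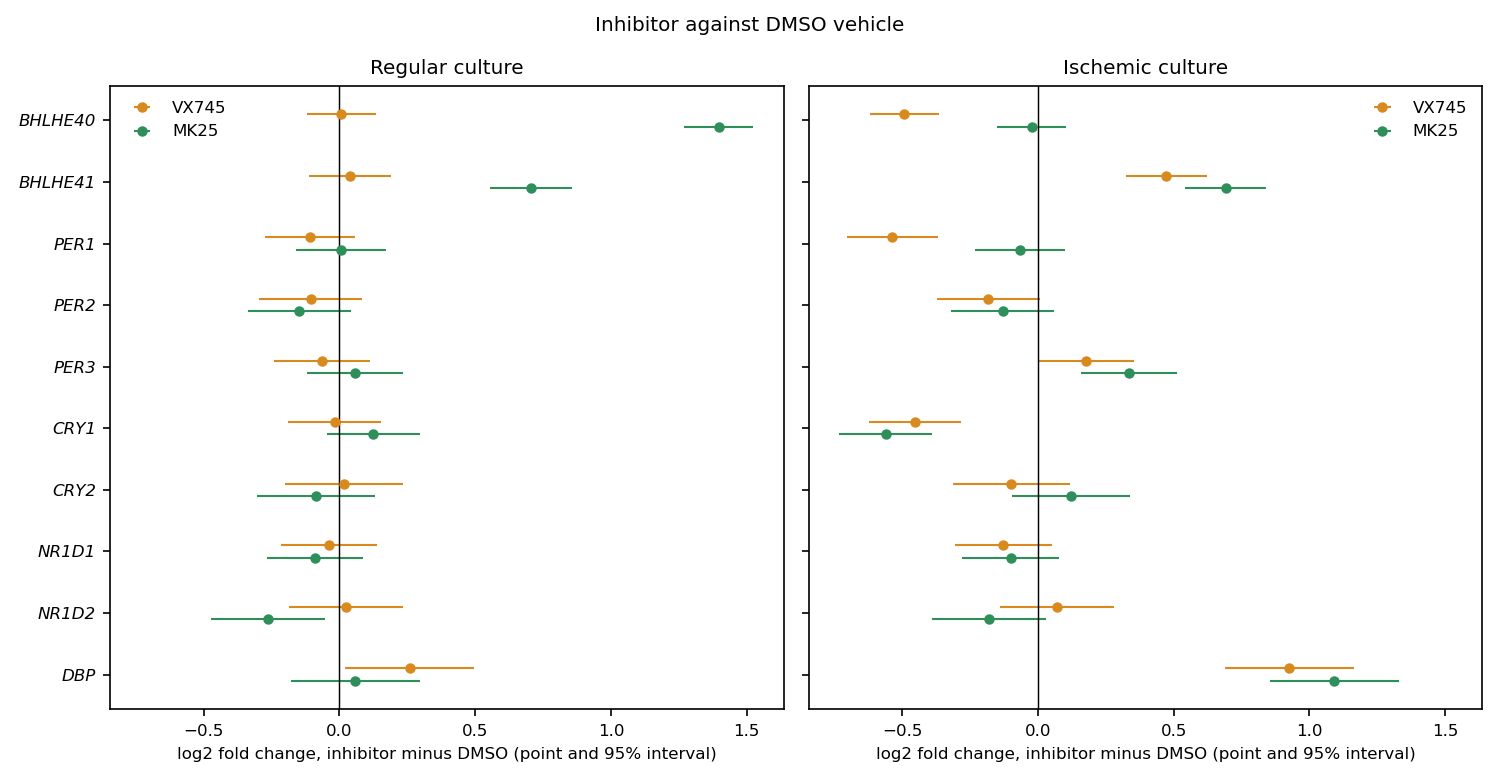
Points are log2 fold changes of each inhibitor against DMSO and bars their 95% intervals, in regular culture (left) and ischemic culture (right). In regular culture *BHLHE40* and *BHLHE41* under MK25 stand at 1.40 and 0.71, and in ischemic culture *DBP* stands at 0.93 under VX745 and 1.09 under MK25.

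In ischemic culture both inhibitors raised *DBP* and *BHLHE41* and lowered *CRY1*, and VX745 lowered *BHLHE40* and *PER1*. With VX745 2 of 10 genes rose and 3 fell, where 14% of all genes were higher and 14.9% lower. With MK25 3 of 10 rose and 1 fell, where 19.8% of all genes were higher and 22% lower. The MK25 counts were not far from these shares. Past 1.5-fold there was 1 with VX745 (*DBP*, higher) and 2 with MK25 (*DBP* and *BHLHE41*, both higher), so the other calls were of smaller changes. The median over the 10 genes was -0.11 and -0.04. Both comparisons share the 2 ischemic DMSO libraries.

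*DBP* read 2.89 and 3.04 in the ischemic DMSO libraries, 3.95 and 3.84 under VX745 and 4.04 and 4.08 under MK25. It rose 1.90-fold with VX745 (log2 fold change 0.93, SE 0.11, limma adjusted p = 1.9e-05) and 2.13-fold with MK25 (1.09, SE 0.11, adjusted p = 1.2e-06). The overlapping gene *SPHK2* had log2 fold changes of 0.13 and 0.11 there (adjusted p = 0.27 and 0.31). *BHLHE41* read 5.91 and 5.97 in DMSO, 6.42 and 6.41 with VX745 and 6.63 and 6.63 with MK25. It rose by 0.47 (SE 0.07, adjusted p = 0.00013) and by 0.69 (SE 0.07, adjusted p = 1.1e-06) on the log2 scale, so that its ischemic levels with the inhibitors lay above that with DMSO.

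*CRY1* read 4.77 and 4.75 in the ischemic DMSO libraries, 4.32 and 4.29 under VX745 and 4.19 and 4.21 under MK25. It fell by 0.45 (SE 0.08, limma adjusted p = 0.00060) and by 0.56 (adjusted p = 4.0e-05). *PER3* read 4.69 and 4.57 in DMSO and 4.91 and 5.03 with MK25, a rise of 0.34 (adjusted p = 0.0040) that was lost without ischemic DMSO library 2 (0.28) or ischemic MK25 library 2 (0.27).

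*BHLHE40* read 10.67 and 10.77 in the ischemic DMSO libraries, 10.25 and 10.21 under VX745 and 10.71 and 10.68 under MK25. It fell by 0.49 with VX745 (SE 0.06, limma adjusted p = 1.9e-05), and its log2 fold change with MK25 was -0.02 (95% interval -0.15 to 0.10, adjusted p = 0.79). *PER1* read 6.49 and 6.56, 6.03 and 5.96, and 6.42 and 6.50 in the same order. It fell by 0.54 with VX745 (adjusted p = 0.00011), and its log2 fold change with MK25 was -0.07 (-0.23 to 0.10, adjusted p = 0.52). *NR1D1* was among the genes with no call, and its neighbour *THRA* rose by 1.09 with VX745 and 1.15 with MK25. *NFIL3* fell by 0.23 with VX745 (adjusted p = 0.043). Of the hypoxia genes 4 of 6 fell with VX745, among them *VEGFA* by 0.51, where 14.9% of all genes were lower. Quantile normalization lost the VX745 calls of *NFIL3*, *ADM* and *PDK1*. With MK25 1 of 6 rose and none fell, where 19.8% of all genes were higher and 22% lower.

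Set against each other in ischemic culture, MK25 gave higher levels than VX745 for *BHLHE40* (log2 difference 0.47, SE 0.06, limma adjusted p = 2.4e-05), *PER1* (0.47, SE 0.08, adjusted p = 0.00038) and *BHLHE41* (0.22, SE 0.07, adjusted p = 0.039). That is 3 of 10 higher and 0 lower, where 8.22% of all genes were higher and 10.2% lower. The *BHLHE41* call was lost in each of the 4 fits that left out 1 of the compared libraries (0.21 to 0.22). For *DBP* the difference was 0.17 (95% interval -0.07 to 0.40) and for *CRY1* -0.11 (-0.28 to 0.06), neither past the test. The methods of the study list VX745 at a lower working concentration than MK25, without tying either to these libraries, so the comparison is of these groups and not of the compounds at a matched dose.

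The effect of an inhibitor in ischemic culture was then tested against its effect in regular culture. For VX745 the difference was called for 5 of 10 genes, 2 higher and 3 lower in ischemic culture, where 5.78% of all genes were higher and 6% lower. It was 0.67 for *DBP* and 0.43 for *BHLHE41*, and -0.50 for *BHLHE40*, -0.44 for *CRY1* and -0.43 for *PER1*. Leaving out 1 library left between 1 and 4 of these calls, the fewest without ischemic VX745 library 1 (1) and ischemic DMSO library 1 (2), and 3 without library 2 of the ischemic or of the regular VX745 group. For MK25 it was called for 3 of 10, 1 higher and 2 lower, where 10.5% of all genes were higher and 13.9% lower. It was 1.03 for *DBP* (SE 0.16), -0.68 for *CRY1* (SE 0.11) and -1.42 for *BHLHE40* (SE 0.08, limma adjusted p = 9.0e-09). For *BHLHE41* under MK25 it was -0.01 (95% interval -0.22 to 0.20, adjusted p = 0.94), with a rise in each culture.

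Per kilobase of exon (all annotated exons of a gene joined), *BHLHE40* was the most abundant of the 10 genes in each group of the inhibitor experiment and *DBP* the least. These places depend on the joined lengths, and which transcripts the cells used was not measured. On this scale (log2 normalized CPM per kilobase) the group means in DMSO were 3.85 and -0.26 in regular culture and 8.91 and 0.27 in ischemic culture. *NR1D1* was next to *BHLHE40* in both DMSO groups, at 2.55 and 4.83. *BHLHE41* was at place 6 of 10 in regular DMSO cells (1.86) and at place 3 in ischemic DMSO cells (3.99).

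By group mean in the inhibitor experiment, *BHLHE40* ran from ischemic DMSO through ischemic MK25 and ischemic VX745 to regular MK25, regular VX745 and regular DMSO. The libraries of the first and second groups overlapped (a difference of 0.02), as did those of the fifth and sixth (0.01). *BHLHE41* ran from ischemic MK25 through ischemic VX745 and ischemic DMSO to the same 3 regular groups, of which only the last pair overlapped (0.04). *DBP* had the same order of ischemic groups, and its regular MK25 and DMSO libraries overlapped (0.06). *CRY1* was highest in regular MK25 cells and lowest in the ischemic VX745 and MK25 cells, whose libraries did not overlap those of the other groups.

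Among 10053 genes with a mean of at least 3, those whose centred log2 levels over the 12 libraries of the inhibitor experiment lay closest to *BHLHE40* were *SLC2A3*, a glucose transporter, *BEND5* and *GDF15*, a stress-induced cytokine. Their root mean square differences from it were 0.29, 0.31 and 0.34, against 2.26 for the spread of *BHLHE40* itself. Closest to *BHLHE41* were *NDNF*, *ZNF395* and *TET1*, a 5-methylcytosine dioxygenase, at 0.15, 0.15 and 0.18, against a spread of 1.18. The 12 libraries share their culture groups, and this likeness is a description.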

How the data were processed

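The authors trimmed paired-end reads, used HISAT2 to align them to GRCh38, counted reads per gene, normalized the counts with edgeR and deposited the log2 normalized CPM of 16 libraries. The counting program and its strand setting are not given in the sources used here, and the libraries are taken as unstranded from the kit named. The log2 values were used as deposited, with no further pseudocount, and the tables of the 2 experiments were never compared by a test. Undoing the logarithm gave whole reads (within 0.05 read) for 100% of values, over an offset of 1.49 to 2.62 reads, which shrinks the fold changes of low genes. Fold changes, two-sided p-values and 95% intervals came from limma 3.58.1 in R 4.3.3, with 1 mean per group, the groups of each experiment fitted together and a trend of variance on mean. Within each comparison p-values got a Benjamini-Hochberg adjustment over every gene listed, and an adjusted p under 0.05 was a call. The fit was tested on simulated data.

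Of the Entrez identifiers, 99.4% and 99.3% matched a symbol. The 10 genes and the gene lists were chosen with earlier results of these data known. All 10 genes are named, with every listed gene of the positive limb, ROR and D-box lists, the kinases, ligases, cofactors and output genes past a 2-fold call in both ischemia comparisons, the hypoxia check, the genes that overlap a member and the 3 nearest patterns of each BHLHE gene. Not reported here, and left out of its list, is 1 output gene. Exon overlaps came from GENCODE and promoters from RefSeq. The alternatives were median centring, quantile normalization, a mean of at least 1 CPM, no variance trend, a replicate block, voom on recovered reads, only the groups compared, other fold thresholds, a shorter promoter window and each library left out. Python 3.11.15 drew the figures.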

Additional observations from a re-analysis of the deposited data

Results flagged for a closer look

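The effects of the inhibitors on 5 clock genes differed between ischemic and regular culture by the interaction term of the limma fit, 8 times in all. For VX745 the difference of the log2 fold changes (ischemic minus regular culture) was -0.50 for *BHLHE40* (SE 0.08, adjusted p = 0.0019), 0.43 for *BHLHE41* (SE 0.10, adjusted p = 0.011), -0.43 for *PER1* (SE 0.11, adjusted p = 0.020), -0.44 for *CRY1* (SE 0.11, adjusted p = 0.021) and 0.67 for *DBP* (SE 0.16, adjusted p = 0.013). For MK25 it was -1.42 for *BHLHE40* (SE 0.08, adjusted p = 9.0e-09), -0.68 for *CRY1* (SE 0.11, adjusted p = 0.00042) and 1.03 for *DBP* (SE 0.16, adjusted p = 0.00021). The 2 inhibitors share the DMSO libraries of each culture. Beside the MK25 value of *BHLHE40* stand interaction terms of -2.01 for *PDK1*, -1.82 for *ANKRD37* and -1.04 for *VEGFA*, of the hypoxia genes, whose part in it was not tested. Groups of 2 libraries are too small for a test of single libraries that stand apart.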

How the results depend on the processing

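Over all alternatives 69 log2 fold changes of the 10 genes were followed. These were all that were called, all of the untreated and DMSO ischemia comparisons, and some reported without a call. Other uncalled values were left out of this tally. Of the 785 values obtained, 744 kept their direction and their side of the threshold, 28 lost the call, 4 gained it and 9 turned direction. None of the 9 had been called. These were *BHLHE40* under MK25 in ischemic culture (0.16 with quantile normalization, -0.073 to 0.028 with 1 library left out), *PER1* there (0.0047 with quantile normalization), *BHLHE41* for the MK25 interaction (0.063 with quantile normalization, -0.050 to 0.023 with 1 library left out), *CRY1* between cultures in DMSO (-0.00863 to 0.12) and *DBP* under MK25 in regular culture (-0.038 to 0.15), the last 2 also with 1 library left out.

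The number of genes called for the VX745 interaction, 5, became 3 with quantile normalization, which lost *BHLHE40* (-0.30) and *PER1* (-0.38), and 3 with no variance trend, which lost *PER1* and *CRY1*. Without 1 library each, this count and those of other comparisons also changed, and the share of all genes called in such fits is not given. With a threshold of 1.5-fold and then of 2-fold, the count was 5 and 5 for ischemia in DMSO, 1 and 0 for VX745 in ischemic culture, 2 and 1 for MK25 there, and 0 and 0 for MK25 against VX745. At 2-fold it was 1 for MK25 in regular culture and 6 for ischemia under MK25. Among 265 calls of the other named lists, median centring turned 0 directions and lost 4 calls, and quantile normalization turned 6 and lost 26, *NFIL3*, *ADM* and *PDK1* under VX745 in ischemic culture and *HLF* under MK25 there among them. The cause of these changes was not tested.

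Replicate numbers showed no uniform pairing of the libraries in the inhibitor experiment, and for the untreated experiment pairing stays undecided. Deviations of same-numbered libraries had a correlation of 0.27 in the untreated experiment, and between -0.27 and 0.32 over 15 pairs of groups in the inhibitor experiment, of which 4 were over 0.1. With the replicate block the counts stayed at 7 and 9 for ischemia, 5 and 4 for VX745 and MK25 in ischemic culture, 0 and 2 in regular culture, and 5 and 3 for the interactions.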

Other observations

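Other clock genes named above also responded to the inhibitors in ischemic culture. *BMAL2*, an activator of the positive limb, read 4.51 and 4.56 with DMSO, 4.85 and 4.86 with VX745 and 4.06 and 4.04 with MK25. It rose by 0.33 under VX745 (limma adjusted p = 0.0024) and fell by 0.48 under MK25 (adjusted p = 4.0e-05), and MK25 differed from VX745 by -0.81 (SE 0.07, adjusted p = 2.6e-07). *BMAL1* fell by 0.41 under MK25 (adjusted p = 0.0029), and its log2 fold change under VX745 was -0.13 (adjusted p = 0.34). *HLF*, an activator of the same family as DBP, rose by 0.85 under VX745 (adjusted p = 0.00052) and by 0.43 under MK25 (adjusted p = 0.030), and the difference of -0.42 between the inhibitors did not pass (adjusted p = 0.059).

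*CIART*, the CLOCK and BMAL1 repressor, fell by 0.46 under VX745 and by 0.35 under MK25 in ischemic culture, and rose by 1.09 under MK25 in regular culture. *USP2* rose by 1.87 under VX745 and by 2.31 under MK25, from 7 and 7 reads in the ischemic DMSO libraries to between 33 and 68 reads. Their log2 fold changes under VX745 in regular culture were -0.14 and 0.10, neither past the test (adjusted p = 0.52 and 0.91).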
